A study of Homo sapiens with 6 samples.

Results

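The replication-independent histone variant genes were 9 of the 62696 genes in the count tables, given as a list of symbols: H2AZ1 and H2AZ2, H2AX, H2AJ, H3-3A and H3-3B, MACROH2A1 and MACROH2A2, and H1-10. All 9 were found and all 9 passed the filter on low counts. They were measured in 12Z, an established line of epithelial cells from endometriosis, a disease in which tissue like the lining of the uterus grows outside it. The cells received by lipid transfection either a control siRNA or an siRNA against the long non-coding RNA LINC01638, and were harvested 72 hours later. Each group held 3 libraries, replicates A, B and C, of total RNA depleted of ribosomal RNA and read in paired stranded reads of 50 bases. The measurements therefore come from 1 cell line, 1 siRNA per group and 1 time, and all cells of both groups had been transfected. The labels do not say whether the replicates were separate cultures, so the p-values rest on the spread among 3 libraries a group, possibly a technical one. In such bulk libraries, fewer cells of a type and less RNA per cell cannot be told apart.

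Most histone genes are switched on in S phase, and their mRNAs end in a stem-loop in place of a poly(A) tail. The replacement variants are made through the whole cell cycle from genes outside those clusters, mostly as spliced or polyadenylated mRNAs, and are placed in chromatin by chaperones and remodelling enzymes without DNA replication. H2A.Z marks nucleosomes beside promoters, H2A.X is phosphorylated around DNA breaks, H3.3 replaces H3 at active genes and at telomeric and other repeats, and macroH2A carries a large extra domain and is known from silent chromatin such as the inactive X chromosome. H1-10 encodes H1.X, a linker histone, which binds the DNA entering and leaving the nucleosome.

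Gene counts came to between 45617234 and 58148664 per library, and the 9 genes had between 582 and 33323 counts in each. LINC01638 itself fell to 2.29, 1.98 and 2.05 counts per 1000000 (CPM, scaled to library size by the TMM method) with its siRNA, from 7.64, 7.65 and 7.81 CPM (edgeR adjusted p = 3.73e-11). Of 18569 genes tested, 10390 passed an adjusted p of 0.05, which is 56.0%, with 26.3% higher and 29.6% lower. For 61.5% of the tested genes the 3 libraries of one group lay wholly outside the range of the other. The keratin genes of the epithelial label were abundant (2487 to 2695 CPM for KRT8 in control libraries), while EPCAM, which defines many epithelia, did not exceed 1.61 CPM in any library. Reads that fell in no annotated gene were 8.32 to 10.1% in control libraries and 12.1 to 15.1% with LINC01638 siRNA, and the part of this difference in the results below was not tested.

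The 130 bases before the start sites of 6 of the genes are shown because they set apart genes with a TATA word close to the start from genes without one. They come from RefSeq on GRCh38.p14, which gave 13 windows of 300 bases (250 before to 50 after the start) for the 9 genes. Capitals mark TATAAA and CCAAT on either strand (CCAAT on the other strand reads ATTGG), and each line runs 5′ to 3′ toward the gene and ends at the base before the first transcribed one.
H2AZ1, chr4:99950276-99950405, minus strand: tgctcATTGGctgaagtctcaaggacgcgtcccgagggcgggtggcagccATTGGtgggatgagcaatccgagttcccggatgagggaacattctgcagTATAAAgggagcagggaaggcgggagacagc
H2AX, chr11:119095466-119095595, minus strand: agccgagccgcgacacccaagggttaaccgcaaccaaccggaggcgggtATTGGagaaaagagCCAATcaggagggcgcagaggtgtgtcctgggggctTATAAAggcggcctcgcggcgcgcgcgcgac
H3-3B, chr17:75779780-75779909, minus strand: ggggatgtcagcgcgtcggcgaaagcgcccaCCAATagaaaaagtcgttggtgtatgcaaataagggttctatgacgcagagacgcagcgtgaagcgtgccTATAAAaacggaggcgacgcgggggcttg
H1-10, chr3:129316287-129316416, minus strand: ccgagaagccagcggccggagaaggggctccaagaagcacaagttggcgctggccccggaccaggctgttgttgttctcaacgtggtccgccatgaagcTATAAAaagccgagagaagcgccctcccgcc
H2AJ, chr12:14774275-14774404, plus strand: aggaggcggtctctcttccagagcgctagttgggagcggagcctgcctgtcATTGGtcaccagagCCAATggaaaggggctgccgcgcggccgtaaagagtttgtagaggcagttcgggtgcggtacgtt
MACROH2A1, chr5:135399888-135400017, minus strand: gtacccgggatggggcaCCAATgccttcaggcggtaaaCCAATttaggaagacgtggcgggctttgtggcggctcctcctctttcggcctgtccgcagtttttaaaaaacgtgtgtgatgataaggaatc

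TATAAA began 31 bases before the start of H2AZ1, H2AX and H1-10 and 29 bases before that of H3-3B, in each case read toward the gene. H2AZ2, H2AJ, H3-3A, MACROH2A1 and MACROH2A2 had no TATAAA on either strand of any window. Over all 35116 windows, 11.5% held TATAAA on either strand and 2.17% held it read forward with its first base 35 to 25 bases before the start. CCAAT was in 9 of the 13 member windows and 34.6% of all windows. It stood in opposite orientations, ATTGG before CCAAT, in the stretches printed for H2AX and H2AJ. There were 4 copies in the window of H3-3B, 3 in that of H2AZ1 and 4 in that of H2AZ2. H1-10 and MACROH2A2 had none, and of the 2 start sites of MACROH2A1 the upstream one had 2 copies and the other none.

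Both words were among 12 searched on either strand. GGGCGG was in 8 member windows and 45.0% of all windows, and GGGCGGGG, which overlaps it, in 3 and 22.8%. TTTGAA was in 2 and 15.2%, TTCCCGC in 1 and 6.55%, and TTGGCGC in 1 and 3.04%. No member window held TTTCGCG (1.32% of all windows), TTTGGCG (1.92%), CACGTG (7.26%), TGACGT (7.98%) or TGACGTCA (1.85%), the last of which contains the one before. These matches describe letters in a window and not binding.

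The 4 members with TATAAA close to the start all passed the test as lower after LINC01638 siRNA, as given gene by gene below (H2AZ1 only narrowly), and so did 2 of the 5 without it. Among all tested genes matched to a window, 37.6% of the 279 with the word in that place were called lower and 32.3% higher, against 34.8% lower and 27.5% higher of the 11754 without it. For CCAAT 34.0% were called lower and 29.7% higher with the word, against 35.5% lower and 26.1% higher without it.

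H2AX also carries, after its stop codon, the kind of hairpin that ends replication-dependent histone mRNAs, and it is shown because it sets H2AX apart from the other 8. Capitals mark the paired arms of 6 bases each, which face each other across a loop of 4.
H2AX hairpin, chr11:119094898-119094913, minus strand, with 3 bases on either side: aaaGGCCCTtttaAGGGCCacc
It started 50 bases after the stop codon in the GENCODE 29 transcript, which ran on for another 1044 bases. A hairpin of this shape was in 101 of 19922 protein-coding transcripts (0.507%), 1 per gene, and in 28 of 71 genes whose GENCODE 29 names begin with HIST (39.4%). The search pattern was set after the H2AX sequence had been seen. H2AX is known to give both a short mRNA ending at this hairpin and a long polyadenylated one, and counts per gene do not separate them.

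After LINC01638 siRNA, 6 of the 9 genes fell, 2 rose and 1 did not pass, which is 8 of 9 called where 56.0% of all tested genes were called (29.6% lower and 26.3% higher). The genes that fell were H2AJ, MACROH2A2, H3-3B, H2AX, H1-10 and, at the edge of the threshold, H2AZ1. MACROH2A1 and H3-3A rose, and H2AZ2 did not pass. The median log2 fold change of the 9 was −0.34, and that of all tested genes −0.0014. The members' changes ran from −0.88 for H2AJ to 0.52 for MACROH2A1, all under a factor of 1.84. Library values did not overlap between groups for 8 of the 9 genes, against 61.5% of all genes. These shares over all genes were not matched for level. By mean CPM, H2AZ1, H2AZ2, H2AX, H3-3B, H1-10 and MACROH2A1 stood at percentiles 96.6 to 98.8 of the tested genes. With a stricter filter (at least 1 CPM in 3 libraries, mean count at least 10), 9268 of 13815 genes and 7 members were called.

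**Figure D1:**
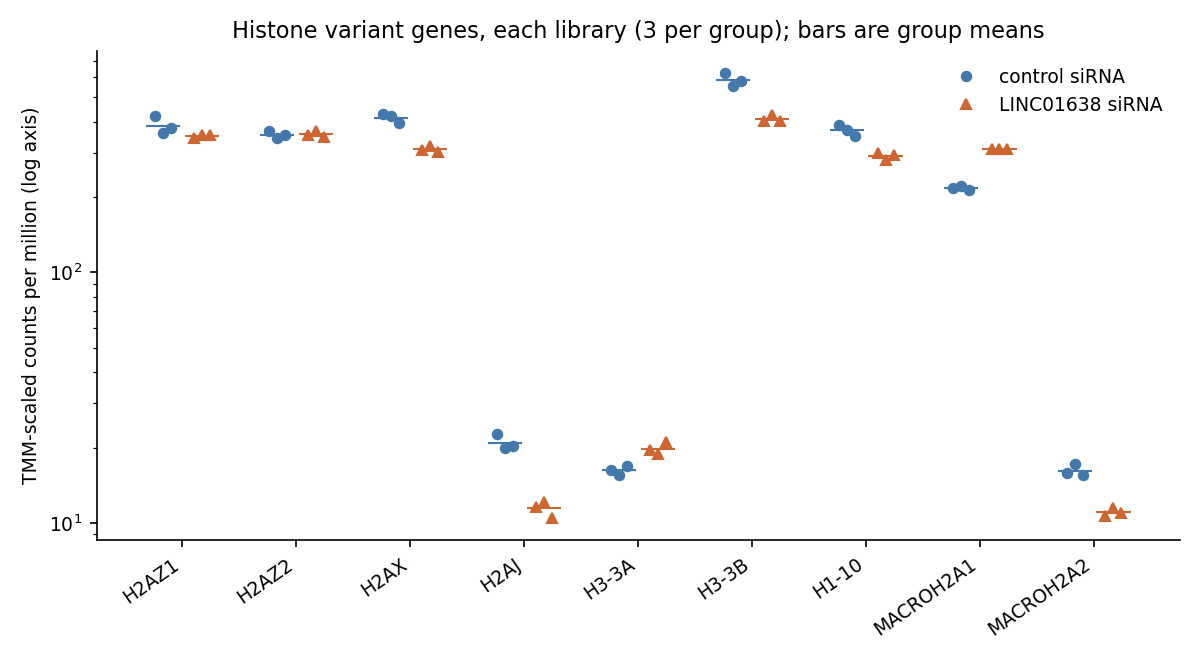
TMM-scaled CPM on a log axis for the 9 histone variant genes, 1 point per library (3 per group) and a bar at each group mean. The groups stand apart for every gene but H2AZ2, and H2AZ1 is the closest of the others.

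Of the pair of genes for H2A.Z, H2AZ1 fell at the edge of the threshold and H2AZ2 did not pass. H2AZ1 (ENSG00000164032.12, GRCh38 chr4:99948086-99950388, minus strand, 5 exons in its representative transcript) encodes H2A.Z.1. Its levels were 420.4, 359 and 377 CPM in the control libraries A, B and C and, in the same order, 343, 354 and 354 CPM with LINC01638 siRNA (values of the other genes follow this order). Control replicate A was the highest, and the lowest control value lay just above the highest value with LINC01638 siRNA. The call was narrow (log2 fold change −0.14, SE 0.057, edgeR adjusted p = 0.0467). It was lost in 11 of 15 alternative fits, among them the fit on library totals without TMM (−0.04, adjusted p = 0.615). With 1 library left out it held only without control replicate B (adjusted p = 0.0115); the adjusted p was 0.251 and 0.0743 without control replicate A or C, and 0.139, 0.0636 and 0.0901 without LINC01638 siRNA replicate A, B or C. In 93.5% of the 50-base windows of its representative transcript the sequence was found in no other annotated gene, the rest being shared with the pseudogene H2AZP3.

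H2AZ2 (ENSG00000105968.19, GRCh38 chr7:44826791-44848083, minus strand) encodes H2A.Z.2, which differs from H2A.Z.1 at a few residues; both annotated coding sequences are 128 residues long. It was at 368, 344 and 353 CPM with control siRNA and at 354, 368 and 347 CPM with LINC01638 siRNA. The groups overlapped fully, and the log2 fold change was 0.01 (SE 0.0505, edgeR adjusted p = 0.941), with −0.04 to 0.11 over the 15 alternative fits. In 85.2% of the 50-base windows of its representative transcript the sequence was found in no other annotated gene, and the rest was shared with the pseudogene H2AZ2P1. The summed CPM of both H2A.Z genes was 741 ± 44.0 and 707 ± 13.8 (SD, n = 3 each), with groups that overlapped. The log2 ratio of H2AZ1 to H2AZ2 counts was 0.19, 0.0631 and 0.0946 in control libraries and −0.045, −0.0553 and 0.0296 with LINC01638 siRNA, a small shift without overlap (exact permutation p = 0.1, two-sided, the smallest that 3 against 3 libraries allow; adjusted p = 0.1 over 4 ratios).

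In the list of genes for enzymes that put H2A.Z into chromatin or take it out, 11 of 22 tested rose, 3 fell and 8 did not pass, where 26.3% of all tested genes rose and 29.6% fell. The median log2 fold change was 0.15. EPC2 and EPC1, scaffold subunits of the NuA4 acetyltransferase complex, rose from 33.3 ± 0.337 to 52.3 ± 2.36 CPM (log2 fold change 0.65, adjusted p = 4.57e-09) and from 32.0 ± 1.14 to 44.2 ± 2.29 CPM (log2 fold change 0.46, adjusted p = 1e-06). ARID4B, which encodes a chromatin-binding subunit of SIN3 corepressor complexes and is no H2A.Z enzyme, is counted in the list and rose (log2 fold change 0.40, adjusted p = 1.19e-06). RUVBL2, an ATPase of the SRCAP, NuA4 and INO80 complexes, fell from 209 ± 4.65 to 157 ± 4.18 CPM (log2 fold change −0.41, adjusted p = 2.83e-07).

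H2AX and H2AJ, a pair of H2A genes with no intron in their representative transcripts, both fell. H2AX (ENSG00000188486.4, GRCh38 chr11:119093854-119095467, minus strand, 1 exon) encodes H2A.X, whose phosphorylated form marks DNA double-strand breaks. It stood at 429.7, 420.2 and 394 CPM in the control libraries and at 307, 318 and 303 CPM after LINC01638 siRNA. Every library with LINC01638 siRNA lay well under every control library, and the level fell by 25.3% (log2 fold change −0.42, SE 0.0513, edgeR adjusted p = 7.38e-07).

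H2AJ (ENSG00000246705.5, GRCh38 chr12:14774383-14778002, plus strand) encodes H2A.J, a variant of mammals that is known to build up in senescent cells. Its 3 control values were 22.6, 19.9 and 20.3 CPM, and those with LINC01638 siRNA were 11.6, 12.2 and 10.5 CPM. This was the largest change among the 9, a 1.84-fold fall (log2 fold change −0.88, SE 0.0784, edgeR adjusted p = 1.09e-08), and the groups were far apart. The log2 ratio of H2AX to H2AJ counts, which needs no scaling of the libraries, went from 4.31 ± 0.0819 to 4.76 ± 0.0801 (exact permutation p = 0.1, two-sided, the smallest possible; adjusted p = 0.1). The ratio was higher in every LINC01638 siRNA library than in any control library, by a factor of 1.37 between the group means.

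Genes linked to senescence moved in both directions beside H2AJ. Of 19 tested, 5 rose, 9 fell and 5 did not pass, where 26.3% of all tested genes rose and 29.6% fell. The median log2 fold change of the 19 was 0.07, and their changes ran from −0.73 to 3.67, the highest in a gene not named here. CDKN1A, the inhibitor p21 of cyclin-dependent kinases, rose from 120.5 ± 4.16 to 419 ± 41.1 CPM (log2 fold change 1.80, adjusted p = 7.84e-14), and HMGB1, a chromatin protein lost from senescent nuclei, fell from 283 ± 18.9 to 170.2 ± 12.4 CPM (log2 fold change −0.73, adjusted p = 3.68e-09). CDKN2B, a kinase inhibitor of the INK4 family, fell (log2 fold change −0.71, adjusted p = 4.96e-09), as did IGFBP3, a secreted binding protein of insulin-like growth factors (log2 fold change −0.68, adjusted p = 1.07e-08). Genes of proliferation fell more often than they rose, with 10 lower, 2 higher and 8 not passing of 20 (median −0.19). Over all tested genes 29.6% fell and 26.3% rose. CCNA2, cyclin A of S phase and G2, fell from 166 ± 14.0 to 88.3 ± 5.31 CPM (log2 fold change −0.91, adjusted p = 3.42e-10), and the mitotic genes AURKB, CCNB1 and AURKA fell with log2 fold changes of −0.53, −0.39 and −0.37 (edgeR adjusted p = 1.93e-08, 9.63e-07 and 1.82e-06). The part of cell division in the members' changes was not tested.

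Of all tested genes 29.6% fell and 26.3% rose. Among 19 tested genes that write, read or erase the phosphorylation of H2A.X, 8 fell, 4 rose and 7 did not pass (median 0.00496). The largest fall was that of PPP2CA, a catalytic subunit of protein phosphatase 2A, from 18.8 ± 1.03 to 8.23 ± 1.12 CPM (log2 fold change −1.20, adjusted p = 1.15e-09). BRCA1, a repair protein recruited downstream of the mark, fell from 88.7 ± 0.849 to 61.2 ± 3.42 CPM (log2 fold change −0.54, adjusted p = 2.58e-08). PPM1D, the phosphatase WIP1, and EYA3, a tyrosine phosphatase of H2A.X, rose from 68.7 ± 3.06 to 94.6 ± 4.17 CPM (log2 fold change 0.46, adjusted p = 2.41e-07) and from 54.7 ± 0.71 to 73.0 ± 1.27 CPM (log2 fold change 0.42, adjusted p = 3.62e-07).

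The genes for H3.3 moved apart: H3-3B fell and H3-3A rose. Both encode the same protein, with annotated coding sequences of 136 residues each, from mRNAs with different untranslated regions. H3-3B (ENSG00000132475.10, GRCh38 chr17:75776434-75785893, minus strand) had 625, 556 and 579 CPM in control libraries and 402, 426 and 404 CPM with LINC01638 siRNA. The groups did not overlap, and the level fell by 30.0% (log2 fold change −0.52, SE 0.0552, edgeR adjusted p = 1.32e-07). H3-3A (ENSG00000163041.13, GRCh38 chr1:226061851-226072001, plus strand) was at 16.3, 15.6 and 16.9 CPM and then at 19.5, 18.8 and 21.0 CPM. Here every library with LINC01638 siRNA was above every control library, and the rise was 21.5% (log2 fold change 0.28, SE 0.0702, edgeR adjusted p = 0.002).

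Counts of H3-3A need care. Its level was 682 to 1265 counts per library, and only 71.2% of the 50-base windows of its representative transcript were found in no other gene. The rest was shared with 12 processed pseudogenes, and the tables list no multi-mapping reads, so reads that fit more than 1 place were not counted for it. All 12 together held 1452 counts over the 6 libraries against 5754 for H3-3A. The most similar, H3P6, was at 3.21 to 4.02 CPM in control libraries and 2.97 to 3.66 CPM with LINC01638 siRNA, with overlapping groups (log2 fold change −0.17, adjusted p = 0.285 by edgeR). Reads of H3-3B were less affected, with 91.7% of windows unique and the remainder shared with H3-5, a testis gene at no more than 0.275 CPM here.

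As the counts stand, the log2 ratio of H3-3A to H3-3B went from −5.17 ± 0.0837 to −4.38 ± 0.119 (exact permutation p = 0.1, two-sided, the smallest possible; adjusted p = 0.1). The summed CPM of both genes was 642, 571 and 595 with control siRNA and 421, 444 and 425 with LINC01638 siRNA. No library of one group reached the other, and the sum was lower with LINC01638 siRNA.

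Of 12 factors that deposit H3.3, 3 rose, 3 fell and 6 did not pass (median 0.02), a share close to the 56.0% called among all tested genes. The partners ATRX and DAXX, a remodelling enzyme and its H3.3 chaperone at telomeres and repeats, differed in sign. ATRX rose from 99.3, 111 and 111 CPM to 167, 156 and 160.4 CPM (log2 fold change 0.59, adjusted p = 1.05e-08), while DAXX fell from 108, 104 and 106 CPM to 74.5, 73.8 and 76.6 CPM (log2 fold change −0.50, adjusted p = 1.79e-08). Neither gene had a library that overlapped the other group. CHD1, a remodelling enzyme of transcribed genes, rose (log2 fold change 0.33, adjusted p = 3.25e-06) and ASF1A, a chaperone that hands H3 and H4 to HIRA, fell (log2 fold change −0.46, adjusted p = 2.73e-05).

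The macroH2A genes also moved in opposite directions. MACROH2A1 (ENSG00000113648.17, GRCh38 chr5:135333900-135399914, minus strand, 9 exons in its representative transcript) encodes macroH2A1, which is made in 2 splice forms that differ in ligand binding. It measured 217, 221 and 213 CPM in control libraries and 312, 311 and 312 CPM with LINC01638 siRNA. The 3 values with LINC01638 siRNA lay almost on top of each other and far above the controls, a 1.44-fold rise (log2 fold change 0.52, SE 0.0468, edgeR adjusted p = 1.12e-08). MACROH2A2 (ENSG00000099284.15, GRCh38 chr10:70052796-70112280, plus strand, 9 exons) encodes macroH2A2, a separate protein with an annotated coding sequence of the same length, 372 residues. It was at 15.9, 17.2 and 15.5 CPM in the controls and 10.7, 11.4 and 11.0 CPM with LINC01638 siRNA. Its groups did not overlap either, and the level fell 1.47-fold (log2 fold change −0.55, SE 0.0754, edgeR adjusted p = 3.13e-06).

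The log2 ratio of MACROH2A1 to MACROH2A2 counts was 3.77, 3.68 and 3.78 in control libraries and 4.87, 4.76 and 4.83 with LINC01638 siRNA. No values overlapped, and the ratio rose 2.11-fold (exact permutation p = 0.1, two-sided, the smallest possible; adjusted p = 0.1). This was the largest shift of the 4 ratios compared. Counts per gene do not separate the splice forms of MACROH2A1. QKI, a splicing factor known to set which of them is made, fell from 254, 234 and 250.1 CPM to 116, 134 and 113 CPM (log2 fold change −1.02, adjusted p = 6.12e-11).

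QKI belongs to a list of 10 genes linked to macroH2A, of which 2 rose, 2 fell and 6 did not pass (median −0.03). Of all tested genes 56.0% were called. LMNB1, lamin B1 of the nuclear envelope, fell from 281 ± 3.87 to 231 ± 3.40 CPM (log2 fold change −0.29, adjusted p = 2.76e-05). HELLS, a remodelling enzyme of silent chromatin, and CTCF, which binds insulators, rose, with log2 fold changes of 0.16 and 0.14 (edgeR adjusted p = 0.0137 and 0.0139). The adjusted p of HELLS was 0.0925 without LINC01638 siRNA replicate A and 0.0789 on counts taken without regard to strand. That of CTCF was 0.0716 without control replicate C, 0.0687 with no filter on low counts and 0.115 on counts taken without regard to strand.

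**Figure D2:**
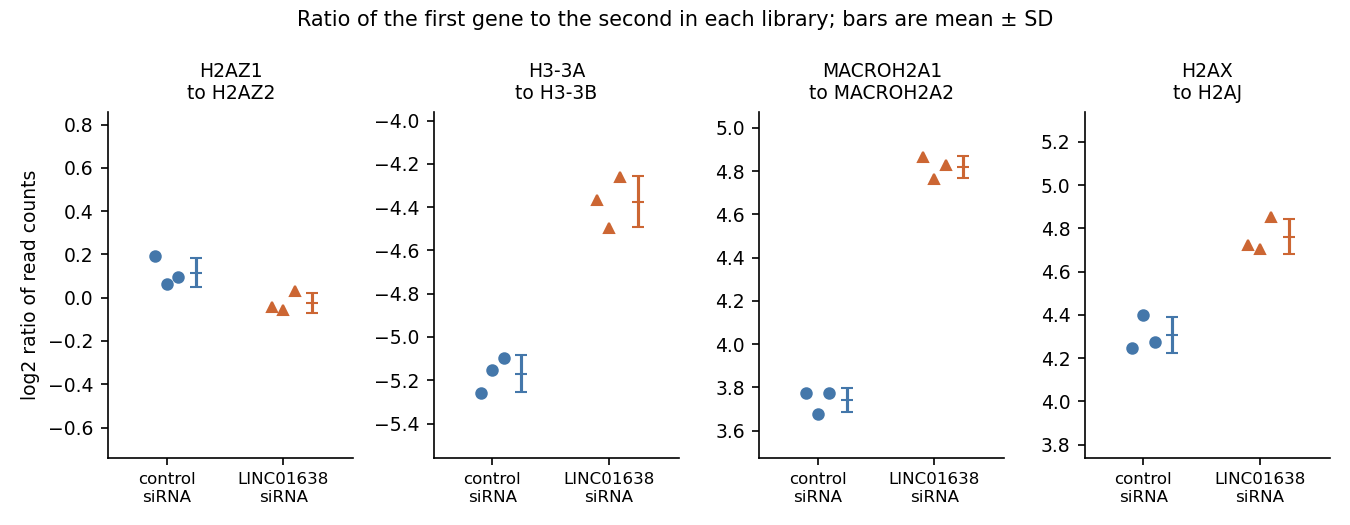
Log2 ratio of read counts of 2 related genes in each library, 1 point per library, with mean ± SD (n = 3) beside the points. Every panel spans the same range of 1.6 on the log2 scale, and the macroH2A and H3.3 ratios moved furthest while the H2A.Z ratio moved least.

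The linker histone gene H1-10 fell. H1-10 (ENSG00000184897.7, GRCh38 chr3:129314771-129316277, minus strand, 1 exon) was at 388, 371 and 350.3 CPM with control siRNA and 299, 281 and 296 CPM with LINC01638 siRNA. All 3 libraries with LINC01638 siRNA were below all controls, and the level fell by 21.0% (log2 fold change −0.34, SE 0.0524, edgeR adjusted p = 1.42e-05). The antisense gene H1-10-AS1, which overlaps 345 of its exon bases on the other strand, was at 6.96, 7.78 and 7.35 CPM and 4.73, 6.29 and 5.19 CPM (log2 fold change −0.45, adjusted p = 0.00164 by edgeR). Counts on the strand opposite to H1-10 itself were lower in every LINC01638 siRNA library than in any control library, as for 7.36% of all tested genes, while 3 other members had higher ones without overlap, as for 15.8%.

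Of 6 other tested linker histone genes reported here, 5 fell and H1-6, at no more than 0.421 CPM, rose. Their median log2 fold change was −0.56. Over all tested genes 29.6% fell and 26.3% rose. H1-4, H1-5 and H1-3, which are made with DNA replication, fell from 847 ± 36.5 to 433 ± 25.7 CPM, from 954 ± 59.3 to 537 ± 22.4 CPM and from 122 ± 7.89 to 78.9 ± 3.27 CPM (log2 fold change −0.97, adjusted p = 4e-11; log2 fold change −0.83, adjusted p = 3.87e-10; log2 fold change −0.62, adjusted p = 6.24e-09). H1-2, of the same kind, fell from 836 ± 36.8 to 590.3 ± 33.6 CPM (log2 fold change −0.50, adjusted p = 3.02e-07). As a share of the CPM per kilobase of exon summed over H1-1 to H1-5 and H1-10, H1-10 went from 5.68 ± 0.0151% to 7.32 ± 0.293%. H1-2 went from 30.1 ± 0.269% to 34.7 ± 1.63%, H1-1 from 1.59 ± 0.0505% to 2.04 ± 0.174% and H1-3 from 4.22 ± 0.0977% to 4.47 ± 0.148%, while H1-4 went from 26.0 ± 0.393% to 21.7 ± 0.698% and H1-5 from 32.4 ± 0.404% to 29.8 ± 1.27%. The share of H1-10 was larger in all 3 LINC01638 siRNA libraries than in any control library although its level was lower, and this held for H1-1, H1-2 and H1-3 as well.

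Beyond the 9 genes, 4 of 12 further genes listed as variants could be tested, of which 1 rose, 2 fell and H3-5 did not pass. CENPA, the H3 variant of centromeres, rose from 44.3 ± 1.64 to 52.5 ± 2.13 CPM (log2 fold change 0.25, adjusted p = 0.000654). H2BC26, which encodes an H2B protein and was listed under the older symbol H2BU1, fell from 44.0 ± 2.80 to 16.3 ± 0.797 CPM (log2 fold change −1.43, adjusted p = 1.23e-12). H4C16, a histone H4 gene listed under the older symbol H4-16, fell from 91.2 ± 9.51 to 52.0 ± 3.22 CPM (log2 fold change −0.81, adjusted p = 3.18e-08). General histone chaperones fell more often than they rose, with 11 lower, 5 higher and 9 not passing of 25 (median −0.06). Over all tested genes 56.0% were called, 29.6% lower and 26.3% higher. SET, a chaperone that also inhibits histone acetylation, fell from 709 ± 29.7 to 413 ± 35.1 CPM (log2 fold change −0.78, adjusted p = 1.64e-09). NAP1L4, of the nucleosome assembly family, NPM3, of the nucleoplasmin family, and IPO9, the importin that carries H2A and H2B into the nucleus, fell with log2 fold changes of −0.61, −0.68 and −0.45 (edgeR adjusted p = 1.8e-09, 3.05e-07 and 8.92e-08).

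**Figure D3:**
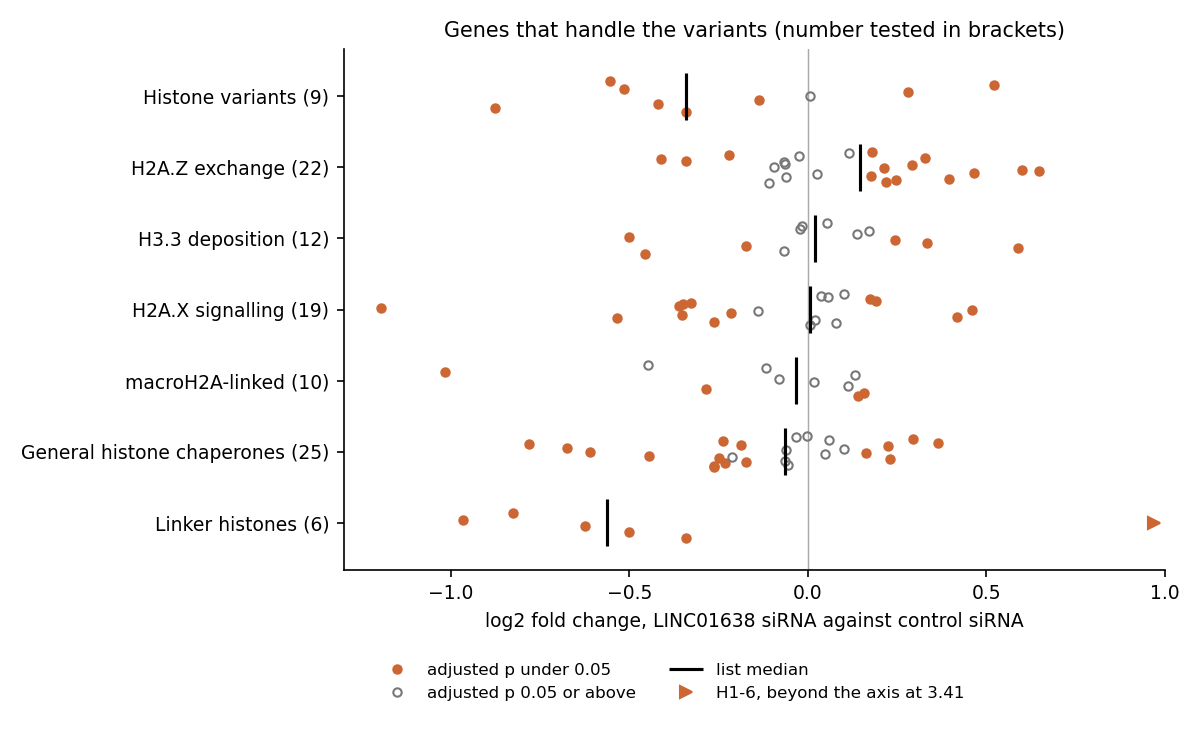
Log2 fold change of each tested gene reported here from 7 lists, filled where the adjusted p was under 0.05, with a line at each list's median. The medians run from −0.56 for the linker histones to 0.15 for the H2A.Z exchange genes, and every list holds genes on both sides of 0; H1-6, at no more than 0.421 CPM, lies beyond the axis.

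Levels of different genes were compared per kilobase of representative transcript. In control libraries the order was H2AZ2 (472 ± 16.6 CPM per kilobase), H2AZ1 (394 ± 32.2), H2AX (257 ± 11.4), H1-10 (245 ± 12.5), H3-3B (217 ± 13.1), MACROH2A1 (77.8 ± 1.51), H2AJ (32.5 ± 2.27), H3-3A (12.4 ± 0.496) and MACROH2A2 (8.18 ± 0.465). H2AX and H1-10 overlapped between libraries and exchanged places after LINC01638 siRNA, while the other neighbours in the order did not overlap and kept their places. The place of H3-3A rests on counts that leave out reads shared with its pseudogenes, as given above. The order also depended on the length used. Divided by all annotated exon bases, which come to 4749 for H2AZ2 against 752 in its representative transcript, H2AX (257 ± 11.4 CPM per kilobase) and H1-10 led the control libraries. H2AZ2 (74.8 ± 2.64) stood below H2AZ1 and H3-3B.

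Among the 6 H2A-type genes the mixture shifted toward MACROH2A1. Its share of their summed CPM per kilobase went from 6.27 ± 0.314% to 9.64 ± 0.201% by transcript length and from 2.33 ± 0.105% to 3.94 ± 0.0806% by exon length. The share of H2AX went from 20.7 ± 0.824% to 16.6 ± 0.124% and from 48.9 ± 1.39% to 43.1 ± 0.385%. For H2AJ it went from 2.62 ± 0.0626% to 1.53 ± 0.0948% and from 1.19 ± 0.035% to 0.764 ± 0.0483%. H2AZ2 gained share by either length (38.1 ± 0.588% to 40.9 ± 0.525% and 14.2 ± 0.353% to 16.8 ± 0.238%), though its level did not pass the test of change, since shares sum to a whole. All of these shares were apart between groups. That of H2AZ1 went from 31.7 ± 1.19% to 30.9 ± 0.606%, with overlap, by transcript length and from 31.8 ± 1.43% to 34.2 ± 0.619%, without overlap, by exon length, so that its direction turned with the length.

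**Figure D4:**
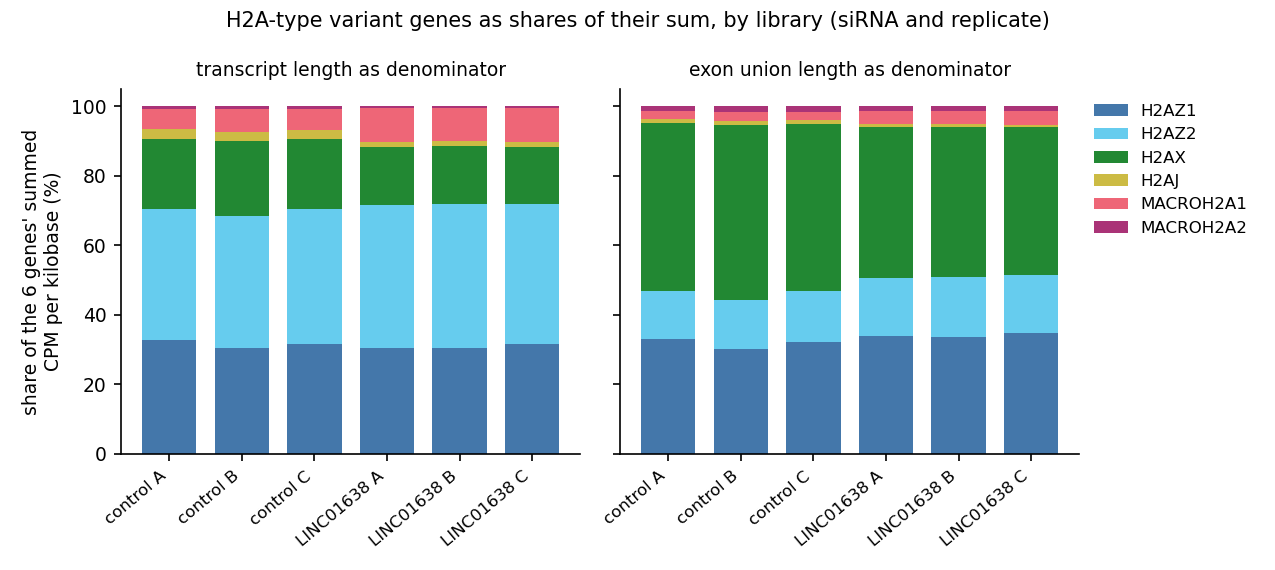
Share of each H2A-type variant gene in the summed CPM per kilobase of the 6 genes, in percent, as 1 stacked bar per library, by transcript length on the left and by exon length on the right. The MACROH2A1 band is wider and the H2AX band narrower in the 3 LINC01638 siRNA libraries of both panels, while the overall make-up differs more between the panels than between the groups.

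Neighbouring genes gave a view of the places where the members lie. Of 17 neighbouring protein-coding genes reported here, each the nearest on a side of a member without overlapping it, 16 were tested. Of these 5 rose, 6 fell and 5 did not pass, where 56.0% of all tested genes were called. Of the 11 called ones, 6 had the call of the member beside them and 5 did not, and all 11 are named. Coding genes that overlap a member were left out of these counts. UNK, on the strand opposite to H3-3B, fell (log2 fold change −0.30, adjusted p = 2.85e-05 by edgeR). AIFM2, opposite to MACROH2A2, rose (log2 fold change 0.45, adjusted p = 1.84e-06 by edgeR). H2AX lies 1036 bases from DPAGT1, an enzyme of protein glycosylation, which fell too (log2 fold change −0.38, adjusted p = 0.000109 by edgeR). H4C16, given above and 3252 bases from H2AJ, fell, whereas WBP11 on the other side rose (log2 fold change 0.31, adjusted p = 1.18e-05). Next to H3-3B, GALK1, galactokinase, fell (log2 fold change −0.70, adjusted p = 1.63e-09), and next to H3-3A, SDE2 and ACBD3 rose (log2 fold change 0.64, adjusted p = 5.22e-09; log2 fold change 0.24, adjusted p = 0.000476). TYSND1 fell beside MACROH2A2 (log2 fold change −0.23, adjusted p = 0.00607), and COL13A1 on its other side rose (log2 fold change 0.28, adjusted p = 0.0108). MACROH2A1 rose where PITX1, 299087 bases away, fell (log2 fold change −0.78, adjusted p = 4.64e-10). DNAJB14 rose beside H2AZ1 (log2 fold change 0.48, adjusted p = 1.1e-06), and PURB fell beside H2AZ2, which did not pass (log2 fold change −0.41, adjusted p = 6.04e-06 for PURB).

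**Figure D5:**
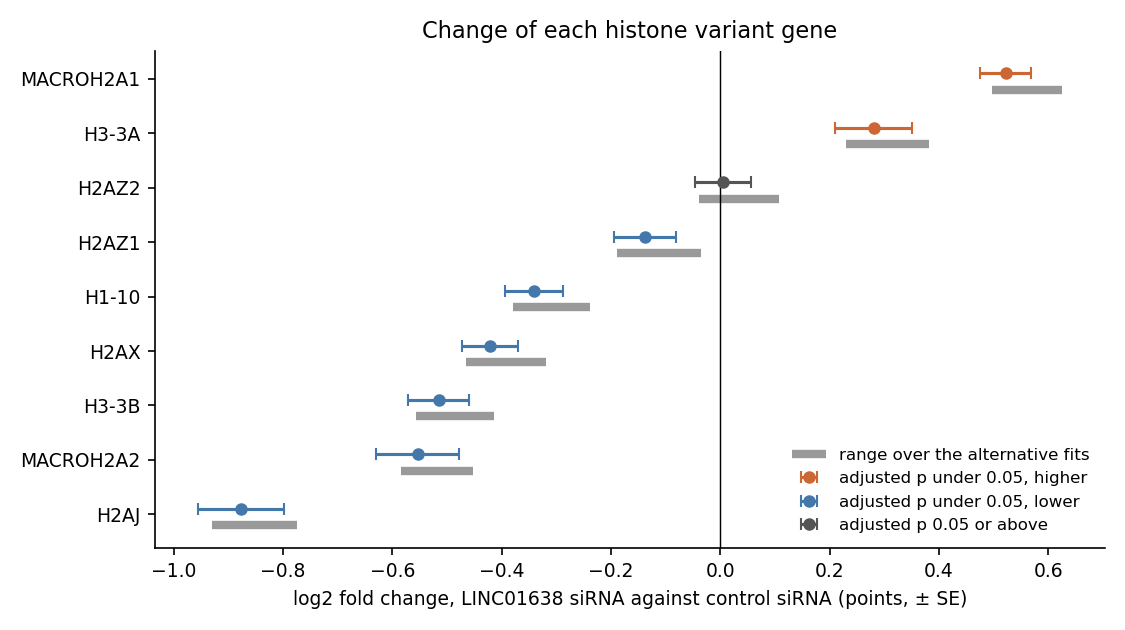
Log2 fold change of each member with LINC01638 siRNA against control siRNA, as a point ± SE, and the range over the 15 alternative fits as a grey bar below it. The ranges of 8 genes stay on 1 side of 0 and that of H2AZ2 crosses it; the H2AZ1 range comes within 0.04 of 0.

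Cell type markers moved with the groups beside the histone variants, where 29.6% of all tested genes fell and 26.3% rose. All marker sums here are CPM on library totals without TMM, unlike the single-gene values and fold changes, so the scales differ. The 8 epithelial markers summed to 5029.6 to 5460.5 CPM in control libraries and 3332 to 3833 CPM with LINC01638 siRNA. Of these markers 6 were called lower and 1 higher. KRT19, CDH1 and KRT8 fell and EPCAM rose, with log2 fold changes of −1.39, −1.18, −0.52 and 1.86 (edgeR adjusted p = 4.97e-10, 1.38e-08, 1.14e-06 and 2.33e-06). The 8 stromal markers summed to 8728 to 9976 CPM in control libraries and 6504 to 6927 CPM with LINC01638 siRNA, with 7 lower and 1 higher, and VIM, COL1A2, DCN and THY1 fell with log2 fold changes of −1.24, −0.89, −0.64 and −0.47 (adjusted p at most 2.37e-06). The 5 endothelial markers summed to 23.0 to 29.2 CPM in control libraries and 13.5 to 16.7 CPM with LINC01638 siRNA. Of the 4 tested, KDR and TIE1 fell and CDH5 and VWF rose, with log2 fold changes of −0.62, −1.95, 0.77 and 0.86 (edgeR adjusted p = 0.00025, 0.0012, 0.00143 and 0.00562; VWF 0.0554 without LINC01638 siRNA replicate C). The 6 immune and blood markers summed to 45.0 to 51.3 CPM in control libraries and 35.5 to 37.1 CPM with LINC01638 siRNA, with CD3E at 0 in every library, PTPRC at no more than 0.412 CPM and CD14 lower (log2 fold change −0.50, edgeR adjusted p = 5e-07). The part of these shifts in the members' results was not tested.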

How the data were processed

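Gene expression was measured by total RNA sequencing in 6 libraries of 12Z cells, 3 per siRNA, grouped by the treatment label. The authors deposited raw read counts per gene made with STAR 2.7.10b on GRCh38, per the submitters' processing notes, which also name R 4.2.1; the annotation release is not given in the sources used here. Counts of the deposited tables' last column, the strand of the directional kit, were used (the others as alternatives), and 4 rows that name no gene were left out of totals and tests. IDs were matched to a list of gene names, 61918 exactly and 754 without version. Of the 62696 genes, 58269 were found in GENCODE 29, which gave the transcripts, exon lengths and overlaps.

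Genes were filtered with filterByExpr (minimum count 10, minimum total 15), scaled by TMM and tested with edgeR 4.0.16 (quasi-likelihood, group only), with Benjamini-Hochberg adjustment over all 18569 genes and a threshold of 0.05. The spread between replicates was 5.62% (common biological coefficient of variation), and the least counted member value, 582 counts, carries a counting error of 4.15%. Ratios of related genes used raw counts plus 0.5 and exact permutation tests. DESeq2 1.42.0 and limma 3.58.1 served as alternatives, with Python 3.11.15, pandas 2.3.3 and scipy 1.17.1. On simulated data, false calls stayed under the threshold with dispersions following the trend and exceeded it with gene-wise dispersions, so calls near 0.05 are less certain than their p. A first version of that check, with gene-wise dispersions alone, did not pass.

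All 9 members are named, and each other list contributes its lowest p-values past the threshold, at most 4 genes, or its 2 most abundant genes where none passes. Some further genes (H3P6, H3-5, H1-6, PTPRC, CD3E, H1-10-AS1, UNK, AIFM2, LINC01638 and the neighbours) are named as checks. Members and lists were chosen with earlier results of these data known. The promoter words and the hairpin were searched after the changes were known. Some genes of the lists and some neighbours are not reported here and were left out of the counts, medians and shares of those groups.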

Additional observations from a re-analysis of the deposited data

Results flagged for a closer look

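The column of counts on the opposite strand is not part of the comparisons above. The values here are per 1000000 gene counts without TMM. On that scale 3 members had more of them in every LINC01638 siRNA library than in any control library. This held for 15.8% of all tested genes, a share also taken without TMM. H1-10 had fewer, with 7.09, 6.86 and 6.97 in controls and 4.81, 6.14 and 4.80 with LINC01638 siRNA, and the other 5 overlapped. For MACROH2A2 the opposite-strand values were 0.999, 0.965 and 0.803 in controls and 2.37, 1.62 and 1.81 with LINC01638 siRNA, a mean of 1.93, whereas MACROH2A2 itself fell. AIFM2, which shares 11 exon bases with it on the other strand, rose from 43.1 ± 0.832 to 58.9 ± 4.77 CPM (log2 fold change 0.45, adjusted p = 1.84e-06 by edgeR). For MACROH2A1 they were 1.98, 1.80 and 2.41 and 3.28, 2.62 and 2.56, a mean of 2.82 with LINC01638 siRNA. The gap between control replicate C (2.41) and LINC01638 siRNA replicate C (2.56) was narrow. It does not hold once the TMM factors of these libraries (0.969 and 1.035) are applied. PITX1-AS1 shares 4968 exon bases with MACROH2A1 on the other strand, and a further antisense gene shares 509. For H3-3A the opposite-strand values were 0.0727, 0.0438 and 0.11 and 0.191, 0.218 and 0.206, a mean of 0.205, which is 10 to 12 counts a library. None of these differences was tested.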

How the results depend on the processing

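The calls of H2AX, H2AJ, H3-3A, H3-3B, H1-10, MACROH2A1 and MACROH2A2 kept direction and side of the threshold in all 15 alternative fits, and H2AZ1 lost its call in 11, so the count of members called was 7 or 8 (leave-one-out 7 to 8). Library totals without TMM moved the median log2 fold change of all genes by 0.102 and gave 6349 higher and 4288 lower genes in place of 4887 and 5503. Counts of the 9 other gene lists, the markers apart, stayed within 1.5 times in every fit; the cause of the lost calls was not tested. The change in paralogue ratio over leave-one-out sets was −0.17 to −0.10 for H2AZ1 to H2AZ2, 0.74 to 0.86 for H3-3A to H3-3B, 1.04 to 1.10 for MACROH2A1 to MACROH2A2 and 0.41 to 0.50 for H2AX to H2AJ. The values gave no sign that the letters A, B and C pair the libraries. Deviations of same-lettered libraries from their group means correlated by −0.12, −0.05 and −0.01 over genes, and no control library was most alike to its own letter. With 3 libraries a group these deviations depend on each other, so such small values cannot settle whether same-lettered libraries were handled together. With a replicate block all genes called were 9962 (main 10390) and members called 7, H2AZ1 being lost (adjusted p = 0.0893); within letters the ratios changed by −0.14, 0.79, 1.08, 0.45, each at the smallest exact permutation p of 0.25. Exon length in place of transcript length, chosen after seeing the data, moved the per-length level of the 6 genes whose lengths differ.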

Other observations

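Counts taken without regard to strand leave out reads where genes on opposite strands overlap, and this touched 3 members. Such counts held 57.2% of the stranded counts of H1-10, 71.3% of those of H2AZ1 and 76.5% of those of MACROH2A1, against 100.1 to 100.7% for H2AZ2, H2AX, H2AJ, H3-3A and H3-3B and 108% for MACROH2A2. The calls of all 9 genes were the same from either column.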
